A study of Homo sapiens with 40 samples.

Results

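The genes described here encode retromer, the WASH complex and their partners in endosomal sorting: 42 genes, taken by symbol from the 60504 genes of the expression table. They comprise core retromer (4 genes), the retriever and CCC complexes (5), sorting nexins (8), the WASH complex (6), the EHD ATPases (4), coat adaptors with the mannose 6-phosphate receptors (7), early endosome and ESCRT proteins (6) and 2 RAB GTPase-activating proteins. All 42 were found, and 41 passed the filter used for testing, at least 1 TPM (transcript abundance scaled for length and library) in at least 7 of 40 libraries, which 14855 genes passed. The exception was EHD3, whose group means lay between 0.106 and 1.14 TPM.

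RNA was measured by paired-end sequencing in microglia-like cells derived from the human embryonic stem cell line H9. Cells were collected after 28 days of microglial differentiation from haematopoietic progenitors with IL-34, TGF-beta 1 and M-CSF, with CD200 and CX3CL1 in the last 3 days. Unedited cells (WT, 7 libraries) were compared with lines that CRISPR/Cas9 editing had made homozygous for a TREM2 knockout (TREM2-KO, 8 libraries), TREM2 R47H (7), a SORL1 knockout (SORL1-KO, 7), SORL1 A528T (7), a CD33 variant (CD33-SNP, 2) or an INPP5D variant (INPP5D-SNP, 2). The protocol lists R744X as the second SORL1 edit beside A528T, and unedited H9 cells carry 1 copy of the INPP5D variant. All groups share the H9 background, and no source used here gives the number of clones behind each line. Nothing says that libraries of a group came from separate differentiations, so p-values measure the spread between libraries, which may be technical.

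Receptors that have been taken up from the cell surface reach early endosomes, where they are either passed to lysosomes or retrieved. Retromer, a trimer of VPS35, a VPS26 paralogue and VPS29, is recruited to endosomal membranes by cargo-bound sorting nexins, and the WASH complex builds branched actin there that shapes the retrieval tubules. SORL1, a VPS10-domain receptor linked to Alzheimer disease risk, is itself sorted by retromer, and TREM2, a lipid-sensing receptor of microglia, passes through the same endosomes.

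Microglia and macrophage markers (12 genes) summed to 4266 to 9476 TPM over all libraries. Each had a mean of at least 1 TPM in each group. Of the 12, GPR34 was higher and C1QA and AIF1 lower in TREM2-R47H than in WT (limma adjusted p under 0.05, as for 11.4% of all tested genes). GPR34 was also higher in SORL1-KO (1.09%). Pluripotency, erythroid and neutrophil markers were at or near 0. Neural markers (5 genes) summed to up to 10.69 TPM in WT and 10.16 in INPP5D-SNP, and at most 3.99 in any other group. TUBB3, of the neural list, averaged 3.35 TPM in WT and 7.04 in INPP5D-SNP. TREM2 averaged 35.3 ± 8.39 TPM (SD, n = 8) in TREM2-KO against 457 ± 120 (n = 7) in WT, and SORL1 averaged 16.1 ± 3.00 TPM in SORL1-KO against 33.3 ± 9.74 in WT (n = 7 each). Libraries that stood apart numbered 4, with a median correlation to the others under 0.95: TREM2-KO libraries 4 and 8, SORL1-KO library 7 and SORL1-A528T library 7. Summed endothelial and stromal markers (11 genes) reached 3198 TPM in WT and 2196 in INPP5D-SNP, but at most 464.5 in any other group. The endothelial genes VWF and CDH5 had means under 1 TPM in 6 and 7 of the 7 groups. PECAM1, of the same list, went the other way, with group means of 144 to 280 TPM. It is counted in these sums and reached 445.96 TPM in TREM2-KO library 8. In bulk RNA, fewer cells of a type and less RNA per cell cannot be told apart.

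Promoters were available for 36 of the 42 genes (RefSeq, GRCh38.p14, from 250 bases before to 50 after the start). Those of the 4 genes on which the comparisons turned most are printed to show the sequence at the start of each, 5′ to 3′ on the gene's strand, with capitals marking a motif found by search. EHD1 (chr11:64879644-64879943, minus strand, from a RefSeq start inside the GENCODE span of the gene) held none of the 4 motifs searched. EHD2 (chr19:47713172-47713471, plus strand) held a kB-like match (GGGA, any 4 bases, CC). TBC1D15 (chr12:71839509-71839808, plus strand) held an E-box (CACGTG). SNX5 (chr20:17968745-17969044, minus strand) held a cyclic AMP response element (TGACGTCA) and a kB-like match.
EHD1: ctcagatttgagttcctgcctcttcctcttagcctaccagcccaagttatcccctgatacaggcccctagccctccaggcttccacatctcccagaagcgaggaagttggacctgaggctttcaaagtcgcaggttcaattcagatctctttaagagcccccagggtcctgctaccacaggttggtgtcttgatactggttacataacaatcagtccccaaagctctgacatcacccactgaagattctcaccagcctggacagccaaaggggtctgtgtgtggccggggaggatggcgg
EHD2: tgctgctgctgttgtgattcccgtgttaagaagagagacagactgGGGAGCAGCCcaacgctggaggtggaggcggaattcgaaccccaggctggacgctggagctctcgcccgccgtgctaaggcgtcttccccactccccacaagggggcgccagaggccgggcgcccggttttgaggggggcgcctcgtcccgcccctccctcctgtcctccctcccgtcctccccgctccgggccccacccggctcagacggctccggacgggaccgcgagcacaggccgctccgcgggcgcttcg
TBC1D15: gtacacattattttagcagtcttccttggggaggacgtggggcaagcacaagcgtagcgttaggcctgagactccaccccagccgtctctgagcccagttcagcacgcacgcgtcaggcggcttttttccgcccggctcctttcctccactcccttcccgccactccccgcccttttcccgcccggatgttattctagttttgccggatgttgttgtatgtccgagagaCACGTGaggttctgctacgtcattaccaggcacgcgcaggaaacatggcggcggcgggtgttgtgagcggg
SNX5: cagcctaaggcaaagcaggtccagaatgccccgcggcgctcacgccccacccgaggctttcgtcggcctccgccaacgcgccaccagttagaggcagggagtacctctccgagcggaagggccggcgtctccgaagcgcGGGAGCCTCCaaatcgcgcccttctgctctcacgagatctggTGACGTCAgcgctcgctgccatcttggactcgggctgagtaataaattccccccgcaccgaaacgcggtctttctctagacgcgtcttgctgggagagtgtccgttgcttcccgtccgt
On both strands, the E-box was found in 4 of the 36 promoters (IGF2R, WASHC2C, TBC1D15 and WASHC4) and in 7.43% of all 27305 promoters of this length, the response element in 2 (WASHC3 and SNX5) and 1.98%, and the AP-1 motif TGANTCA in 2 (SNX27 and CCDC22) and 7.76%. The kB-like motif, the most frequent, was found in 15 of 36 and in 25.1% of all promoters. Matches describe these letters only.

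In unedited cells the sorting genes covered a wide range of levels, compared here in TPM, which accounts for transcript length. M6PR, the cation-dependent mannose 6-phosphate receptor, was highest at 384 ± 37.2 TPM (SD, n = 7 WT libraries, as for all levels in this paragraph). It was followed by the recycling ATPase EHD1 at 276 ± 74.2 and by SNX3, the nexin of the SNX3-retromer carrier, at 247 ± 13.9. Means reached 100 TPM for 8 genes and 10 TPM for 38, and only EEA1, an early endosome tether (8.66 ± 0.813), WASHC1, the actin-nucleation factor of WASH (7.21 ± 0.985), EHD2 (2.20 ± 1.85) and EHD3 (0.42 ± 0.357) fell below 10. Library values of neighbours in this order overlapped except at 5 steps, the drops below SNX3, VPS29, VPS26A, CCDC93 and WASHC1.

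Within core retromer, VPS29 (199 ± 8.82 TPM) and the scaffold VPS35 (120 ± 7.56) exceeded the cargo-binding VPS26A (63.9 ± 3.45), which exceeded its paralogue VPS26B (42.8 ± 2.95), with no overlap between neighbours among the 7 libraries. The retriever subunits VPS35L (40.7 ± 2.10) and VPS26C (39.99 ± 4.67) were at like levels, within each other's spread. Among the subunits of WASH, WASHC4, WASHC2C, WASHC5 and WASHC3 lay between 24.6 and 28.9 TPM. The means of the WASH1 and FAM21 genes are uncertain, because 41.3% of the 150-base windows of WASHC1, 31.8% of those of WASHC2A and 31.4% of those of WASHC2C occur in transcripts of other genes. The like share was 26.4% for VPS4A and 16.1% for SNX6, 2.52% for TBC1D15 and 0 for the other 36.

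**Figure D1:**
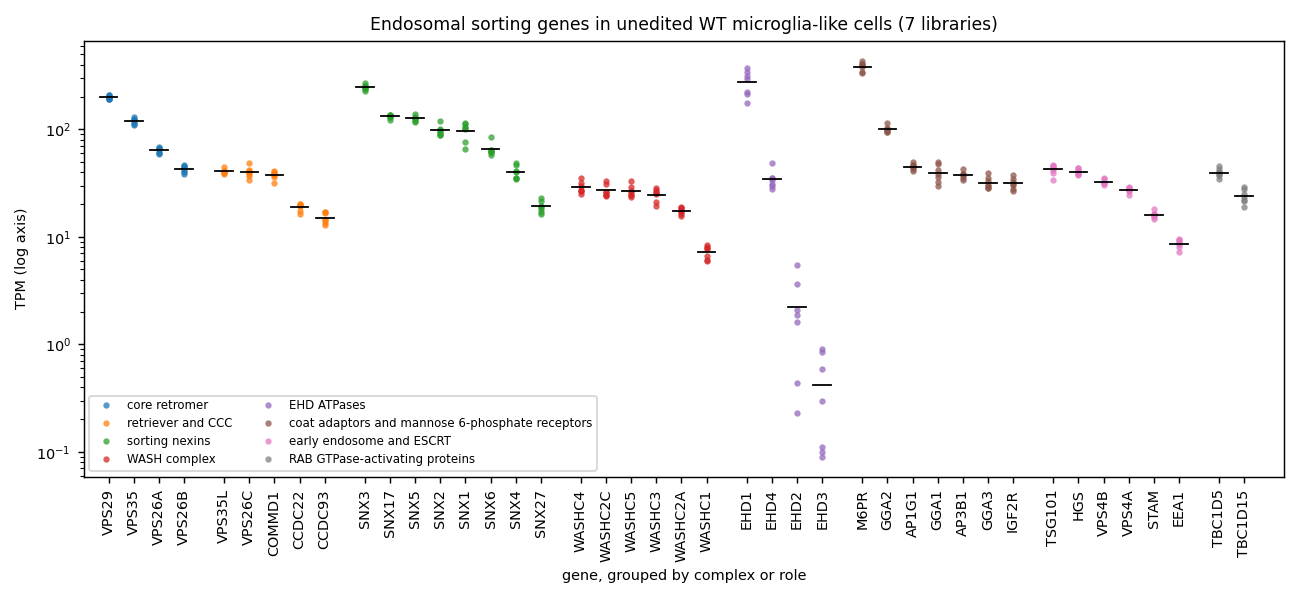
TPM of the 42 sorting genes in each of the 7 WT libraries (points) with the mean (line), on a log axis, grouped by complex or role. M6PR (384 TPM), EHD1 (276) and SNX3 (247) were highest, and EHD2 and EHD3 were the only genes with means under 5 TPM.

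The sorting genes varied little among libraries of 1 group. The within-group SD of log2(TPM + 1) was below the median over all tested genes (0.266) for 37 of 41, and was lowest for SNX5 (0.071), VPS29 (0.087) and WASHC2A (0.091). The 4 exceptions were EHD1 (0.504), EHD2 (0.467), SNX1 (0.378) and TBC1D15 (0.2998). Differences below are on the log2(TPM + 1) scale, which understates those of low genes, with the standard error (SE) and the limma p adjusted over all 14855 genes. A gene is called when that p is under 0.05.

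Against WT, few sorting genes changed in any line. EHD2 passed the filter on low values mainly through WT and INPP5D-SNP libraries, so its calls below are a description, and counts are also given over the 40 other genes. In TREM2-R47H 5 of 41 were called (12.2%), where 11.4% of all tested genes were called, and 4 of 40 (10%) without EHD2, both close to the background. EHD1, EHD2, VPS29 and SNX3 fell (8.77% of all genes did) and SNX5 rose (2.63%). The median change of the 41 was -0.10, against -0.06 over all tested genes, and 34 lay below 0. This lean depended on the scaling: with median-ratio scaling of the libraries the median was -0.03 (all genes 0.01), 24 lay below 0, and the calls were EHD1 and EHD2 lower and SNX5 higher, while over all genes 603 were called higher and 829 lower in place of 390 and 1303. With quantile normalization 23 lay below 0, and EHD4 was called higher (0.27) beside the same 3 genes. No share of all genes called under it is given here. Without EHD2 none of 40 was called in TREM2-KO or SORL1-KO, where 1.61% and 1.09% of all genes were called, and EHD2 itself was called lower in both (1.33% and 0.835% of all genes). In SORL1-A528T TBC1D15 was called lower, 1 of 40 without EHD2, which was also called lower, where only 7 genes, 0.0471% of those tested, were called, 0.0202% lower. None was called in CD33-SNP (0% of all genes) or INPP5D-SNP (0.0337%), and 3 and 5 of the 41 had an unadjusted limma p under 0.05 in these (4.18% and 7.32% of all genes). All 6 comparisons share the WT libraries.

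**Figure D2:**
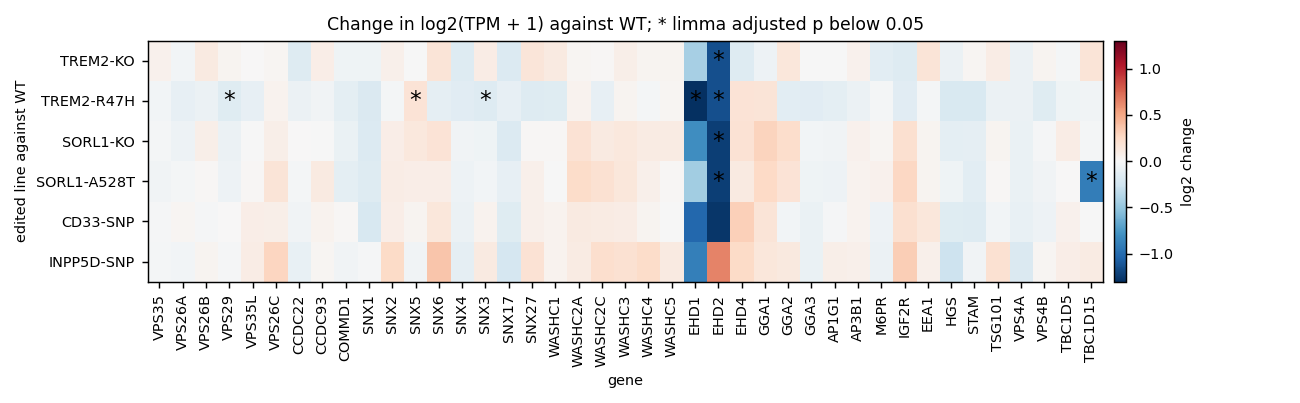
Change in log2(TPM + 1) against WT of the 41 tested sorting genes (columns) in the 6 edited lines (rows), with red higher, blue lower and an asterisk for a limma adjusted p under 0.05; the scale ends at 1.3 in either direction. EHD1 and EHD2 carry most of the colour, and TBC1D15 carries an asterisk in SORL1-A528T.

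Core retromer stayed close to WT in each line, with the exception of VPS29 in TREM2-R47H. VPS35 ranged from 108.69 to 131.4 TPM in WT (median 121) and from 108.44 to 130.68 in TREM2-R47H (median 115), groups that overlapped almost completely. Its change was -0.03 ± 0.06 (SE; limma adjusted p = 0.825) there and between -0.05 and 0.06 in the other lines. VPS26A ranged from 59.04 to 68.02 TPM in WT and from 55.48 to 63.22 in TREM2-R47H, lower on average but overlapping, with a change of -0.10 ± 0.06 (limma adjusted p = 0.323).

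VPS29, the subunit through which retromer binds regulators such as TBC1D5, ranged from 191.15 to 210.39 TPM in WT (median 194) and from 168.45 to 189.82 in TREM2-R47H (median 176). Every TREM2-R47H library lay below every WT library. This absence of overlap was found for 1 of 41 sorting genes (2.44%) and 4.62% of all tested genes. The change was -0.16 ± 0.05 (limma adjusted p = 0.0359). A 2-sided exact permutation test gave 0.000583, the smallest p that 7 against 7 libraries can give (0.014 adjusted over 48 such tests). Groups without overlap always give this smallest p, so the permutation test adds nothing to the absence of overlap. The limma call held in 7 of 13 other settings. It was lost with median-ratio scaling of the libraries (-0.08, adjusted p = 0.389), quantile normalization (-0.10, 0.239), no filter on low genes (0.0684), libraries 5 and 6 of each group averaged (0.0693) and the stromal score as a covariate (-0.16, 0.0974), and among libraries 4 to 6. It was also lost without any 1 of WT libraries 1, 5 and 6 or TREM2-R47H libraries 1, 2, 3 and 7 (adjusted p up to 0.0836). In no other line was VPS29 called. Among libraries 1 to 3 the change was -0.21 (adjusted p = 0.0153) and among libraries 4 to 6 -0.11 (0.468). VPS29 lies at chr12:110491097-110502117 on the minus strand (GENCODE v29, GRCh38).

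The sorting nexins SNX5 and SNX3 changed in opposite directions in TREM2-R47H. SNX5, a subunit of the SNX-BAR dimer that tubulates endosomes and recognises the cation-independent mannose 6-phosphate receptor, ranged from 116.68 to 140.02 TPM in WT (median 126) and from 135.97 to 152.82 in TREM2-R47H (median 143). Only WT library 1 reached the TREM2-R47H range. SNX5 rose by 0.17 ± 0.04 (limma adjusted p = 0.00746; exact permutation p = 0.00175), and the rise was called in each of 14 fits that left out 1 library. Adding the stromal score as a covariate gave 0.15 (limma adjusted p = 0.0739), and the fits by number gave 0.14 for libraries 1 to 3 (0.0973) and 0.18 for libraries 4 to 6 (0.147). SNX5 lies at chr20:17941597-17968980 on the minus strand, a span that overlaps OVOL2 and SNORD17 on the same strand.

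SNX3 ranged from 226.74 to 269.02 TPM in WT (median 245) and from 192.12 to 246.93 in TREM2-R47H (median 209.99), a fall of 0.17 ± 0.06 (limma adjusted p = 0.0423; exact permutation p = 0.0344, 0.110 after adjustment over 48 tests). The TREM2-R47H libraries formed 2 sets: libraries 1, 2, 3 and 7 lay between 192.12 and 209.99 TPM, below every WT library, and libraries 4 to 6 lay between 244.38 and 246.93, where WT libraries 4 to 6 had 253.78 to 269.02. Each of the 7 TREM2-R47H libraries lay below the WT library of its number, with differences of -51.14 to -8.53 TPM. Among libraries 1 to 3 the change was -0.23 (limma adjusted p = 0.00591), and among libraries 4 to 6 it was -0.08 (0.643). With the library numbers as a block SNX3 was called when only these groups were fitted (limma adjusted p = 0.0361). It was also called when all libraries were (0.00467), a fit that also blocks groups the numbers did not pair. These are among the 6 of 13 other settings in which the call held. It was lost with median-ratio scaling (-0.09, adjusted p = 0.317), quantile normalization (-0.10, 0.334), no filter (0.0802), only these groups fitted (0.127), libraries 5 and 6 averaged (0.0565), the stromal covariate (-0.10, 0.371), among libraries 4 to 6, and without any 1 of WT libraries 3 to 7 or TREM2-R47H libraries 1, 2, 3 and 7 (adjusted p up to 0.130). SNX3 lies at chr6:108211222-108261260 on the minus strand.

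SNX5 was higher in SORL1-KO as well, at 133.24 to 152.04 TPM (median 137), with 1 WT library inside that range. The change was 0.14 ± 0.04 and was not called by limma (adjusted p = 0.109). The exact permutation p was 0.0035 (0.0253 over 48 tests), but this adjustment does not cover the choice of SNX5, made after its values were seen. The other nexins, SNX1, SNX2 and SNX6 of the SNX-BAR family, SNX4, which recycles transferrin receptor, and the cargo adaptors SNX17 and SNX27, were called in no comparison with WT. SNX17, which hands cargo to retriever, showed changes of -0.11 to -0.22 in the 6 lines, all below 0, of which -0.18 ± 0.10 in TREM2-KO (limma adjusted p = 0.576) was among the largest not called there. Without the libraries that stood apart it was -0.03 in TREM2-KO.

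EHD1, an ATPase that severs recycling tubules from endosomes, showed the largest fall of any abundant sorting gene. It ranged from 174.73 to 372.27 TPM in WT (median 295) and from 39.08 to 179.39 in TREM2-R47H (median 142). Of the 7 TREM2-R47H libraries only library 3 exceeded the lowest WT library. The change was -1.38 ± 0.26 (limma adjusted p = 0.000348; exact permutation p = 0.00117, 0.0187 over 48 tests), and it was called under all 13 other settings and all 14 fits without 1 library. It was -0.83 among libraries 1 to 3 (limma adjusted p = 0.0033) and -2.19 among libraries 4 to 6 (0.00739), the libraries in which EHD1 was lowest, at 39.08, 67.57 and 77.5 TPM.

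EHD1 means were below WT in each of the other lines, without a limma call. In SORL1-KO it ranged from 91.44 to 212.31 TPM (median 166), mostly below WT but overlapping it. The change was -0.81 ± 0.26 (limma adjusted p = 0.117). The exact permutation p was 0.00524 (0.0253 over 48 tests), an adjustment that does not cover the choice of EHD1, called in TREM2-R47H. In TREM2-KO it ranged from 122.18 to 289.38 TPM (median 209), a change of -0.43 ± 0.25 (limma adjusted p = 0.598). Library numbers pair TREM2-KO with WT by the criterion used here, and blocking on the number gave -0.46, called when only these groups were fitted (limma adjusted p = 0.0022) and not when all libraries were (0.237). In SORL1-A528T it ranged from 132.01 to 257.82 TPM (median 212), a change of -0.45 ± 0.26 (limma adjusted p = 0.987). In the small groups, the CD33-SNP libraries had 149.24 and 115.53 TPM and the INPP5D-SNP libraries 144.82 and 142.46, all below every WT library. Groups without overlap were found for 2 of 41 sorting genes in CD33-SNP (EHD1 and EHD2; 6.63% of all genes) and 2 in INPP5D-SNP (EHD1 and SNX17; 17.2%). Their changes of -1.02 ± 0.39 and -0.89 ± 0.39 were not called (limma adjusted p = 1.00 and 0.662), and 0.0278 is the smallest exact permutation p that 2 against 7 libraries allow. EHD1 lies at chr11:64851642-64888296 on the minus strand.

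**Figure D3:**
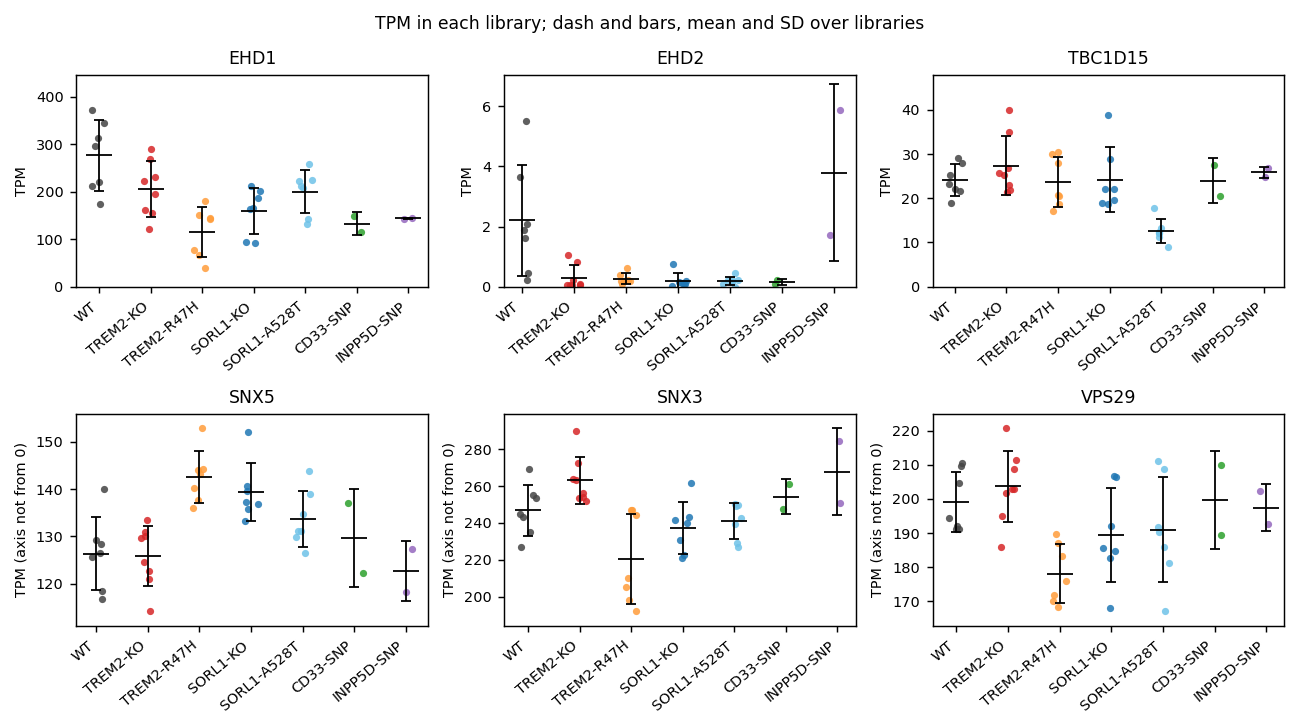
TPM of 6 sorting genes in each library (points) by group, with the mean (dash) and SD (bars); the lower panels do not start at 0. EHD1 is lowest in TREM2-R47H, TBC1D15 in SORL1-A528T, and every TREM2-R47H library has less VPS29 than every WT library.

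EHD2, a paralogue found mainly at caveolae, was a low gene with lower means than WT in 5 of 6 lines. It had 0.23 to 5.52 TPM in WT (median 1.89), against 0.05 to 1.07 in TREM2-KO, 0.09 to 0.61 in TREM2-R47H, 0.02 to 0.76 in SORL1-KO and 0 to 0.44 in SORL1-A528T. WT libraries 1 and 7, at 0.23 and 0.44 TPM, lay within the ranges of the edited lines. The changes were -1.14 ± 0.24 in TREM2-KO (limma adjusted p = 0.00553), -1.14 ± 0.25 in TREM2-R47H (0.00159), -1.23 ± 0.25 in SORL1-KO (0.00868) and -1.23 ± 0.25 in SORL1-A528T (0.0393). Only 8 libraries reached 1 TPM, 7 of them WT or INPP5D-SNP, so EHD2 entered the tests through the groups where it was high and its p-values describe that choice too. The size of the change followed the pseudocount, from -2.26 to -2.70 with 0.1 TPM and from -0.41 to -0.44 with 5 TPM. In SORL1-A528T the call held in 4 of 13 other settings. It was lost with a pseudocount of 0.1 or 5 TPM (adjusted p = 0.0666 and 0.0815), no filter (0.0862), only these groups fitted (0.419, and 0.368 with the block), libraries 5 and 6 averaged (0.270) and libraries 1 to 3 (0.258), and without any 1 of WT libraries 2, 5 and 6 or SORL1-A528T libraries 2 and 4 to 7 (adjusted p up to 0.163), and without the libraries that stood apart (0.0627).

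EHD2 was high where stromal markers were high. The stromal score, the mean log2(TPM + 1) of the 11 markers, averaged 3.82 ± 1.67 (SD, n = 7) in WT and 5.14 ± 1.05 (n = 2) in INPP5D-SNP, against 1.85 to 2.44 in the other groups. INPP5D-SNP, with 1.71 and 5.88 TPM of EHD2, was the only line above WT (0.64 ± 0.37, limma adjusted p = 0.667), and that change turned to -0.0315 without its library 2. WT library 3 departed from this pattern, with 1.62 TPM and a score of 1.29. With the score as a covariate the change was -0.50 (limma adjusted p = 0.150) in TREM2-KO, -0.55 (0.0565) in TREM2-R47H, -0.50 (0.376) in SORL1-KO and -0.55 (0.763) in SORL1-A528T. None was called, but the mean score was itself higher in WT than in these lines, so line and score cannot be told apart. EHD2 lies at chr19:47713343-47743134 on the plus strand.

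**Figure D4:**
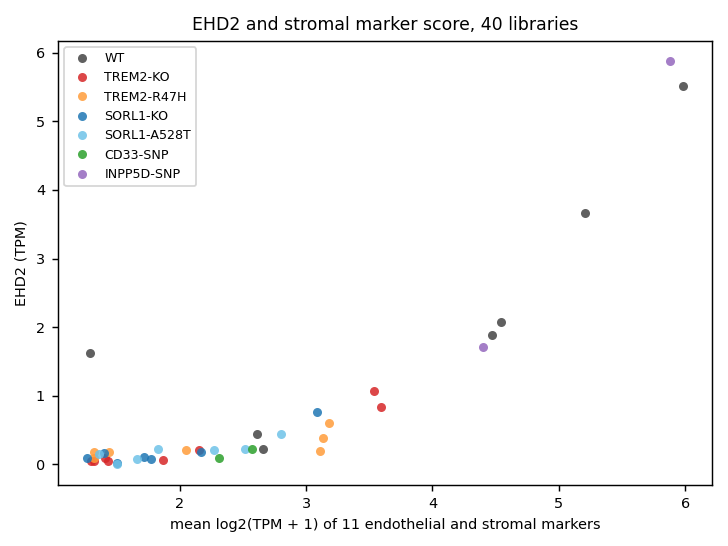
EHD2 TPM against the stromal score in the 40 libraries, coloured by group; points describe libraries that share groups, and no test is attached. The highest EHD2 values (5.52 TPM in WT library 6, 5.88 in INPP5D-SNP library 2) are at the highest scores, and WT library 3 (1.62 TPM at 1.29) lies off the trend.

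TBC1D15, a RAB7 GTPase-activating protein of late endosomes and mitochondria, fell in SORL1-A528T, from a mean of 24.05 TPM in WT to 12.6, and was called against WT in no other line. It ranged from 18.94 to 29.1 TPM in WT (median 23.3) and from 9.07 to 17.87 in SORL1-A528T (median 12.1), and the groups did not overlap. The absence of overlap was found for 1 of 41 sorting genes and 0.155% of all tested genes. The change was -0.89 ± 0.16 (limma adjusted p = 0.00614), with the smallest exact permutation p that 7 against 7 libraries allow (0.000583, 0.014 over 48 tests). That permutation p follows from the absence of overlap alone. The highest SORL1-A528T value was that of library 7, which stood apart, and without the libraries that stood apart the change was -0.98 (limma adjusted p = 3.01e-05). It was called in all 14 fits without 1 library. With the stromal score as a covariate it was -0.69 (adjusted p = 0.310), and with libraries 5 and 6 of each group averaged it was -0.86 (0.0992).

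SORL1-KO did not share this fall: TBC1D15 ranged from 18.72 to 38.89 TPM there (median 22.0), above every SORL1-A528T library. The difference between the SORL1 lines was 0.87 ± 0.16 (limma adjusted p = 0.00305), and TBC1D15 was the only 1 of 41 sorting genes called between them, where 0.0942% of all tested genes were called and 0.0337% were higher in SORL1-KO. Likewise no other sorting gene was free of overlap between these lines (0.135% of all tested genes). Without the other groups in the fit it was not called (adjusted p = 0.102), but it was with the paired library numbers as a block there (0.000622). The largest differences not called were those of EHD1 (-0.36 ± 0.26) and CCDC93 (-0.12 ± 0.08), with limma adjusted p = 1.00 each. In the remaining lines TBC1D15 changed by -0.04 to 0.16. The gene lies at chr12:71839707-71927248 on the plus strand. Its 5 tested neighbours within 1000000 bases, among them RAB21 (-0.07) and TMEM19 (0.04), changed by -0.07 to 0.63 in SORL1-A528T, and the value of 0.63 belonged to the low noncoding gene AC073612.1 (1.24 TPM in WT). TBC1D5, the RAB7 GTPase-activating protein that binds retromer, changed by 0.00 in SORL1-A528T.

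No subunit of the WASH complex (6 genes) or of retriever and CCC (5) was called in any comparison. In TREM2-R47H the WASH subunits changed by -0.15 to 0.04 and the retriever and CCC subunits by -0.13 to 0.05. WASHC2A, a FAM21 paralogue that tethers WASH to VPS35, averaged 20.7 TPM in SORL1-A528T and 19.9 in SORL1-KO against 17.4 in WT. The changes of 0.24 ± 0.06 (limma adjusted p = 0.0664) and 0.19 ± 0.06 (0.0813) fell short of the threshold and passed it with quantile normalization (0.28 and 0.23, adjusted p = 0.0296 and 0.0292). CCDC22 and CCDC93, the coiled-coil scaffold of CCC, differed by at most 0.17 from WT in any line.

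Coat adaptors, mannose 6-phosphate receptors and ESCRT proteins were not called against WT either. IGF2R, the cation-independent mannose 6-phosphate receptor, ranged from 34.13 to 45.4 TPM in SORL1-A528T against 26.77 to 37.83 in WT, overlapping, with a change of 0.27 ± 0.10 (limma adjusted p = 0.481). GGA1, a clathrin adaptor that packages these receptors at the Golgi, ranged from 43.6 to 52.51 TPM in SORL1-KO against 29.87 to 50.14 in WT (0.29 ± 0.09, limma adjusted p = 0.116). The GGA1 change was 0.09 among libraries 1 to 3 (0.775), 0.47 among libraries 4 to 6 (0.043) and 0.14 with the stromal covariate (limma adjusted p = 0.581). HGS and STAM, which form the ESCRT-0 complex that captures ubiquitinated cargo, changed by -0.20 ± 0.07 each in TREM2-R47H (limma adjusted p = 0.0671 and 0.0577). Blocking on the library numbers, neither was called when only these groups were fitted (limma adjusted p = 0.107 and 0.0516). Both were called when all libraries were (0.00683 and 0.0265), a fit that also blocks groups the numbers did not pair. HGS changed by -0.01 among libraries 1 to 3 and by -0.41 among libraries 4 to 6 (adjusted p = 0.961 and 0.0186).

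The TREM2 lines differed from each other more than either differed from WT in the number of genes called. Of 41 sorting genes 9 were called (22.0%), close to the 21.3% of all tested genes, with 7 higher in TREM2-KO (14.7% of all genes) and 2 lower (6.58%). SNX3 (0.26 ± 0.05), VPS29 (0.19 ± 0.05), EHD1 (0.95 ± 0.25), SNX27 (0.33 ± 0.09), STAM (0.23 ± 0.07), GGA2 (0.29 ± 0.09) and VPS26B (0.19 ± 0.07) were higher in TREM2-KO, with limma adjusted p between 0.000461 and 0.0474. EHD4 (-0.35 ± 0.08, adjusted p = 0.00142) and SNX5 (-0.18 ± 0.04, 0.00221) were lower. The median over the 41 was 0.11, against 0.06 over all tested genes, and 0.03 against -0.01 with median-ratio scaling, under which 1462 genes were called higher and 1399 lower in place of 2180 and 977.

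EHD4, a paralogue of EHD1 in endosomal recycling, ranged from 27.59 to 32.34 TPM in TREM2-KO and from 36.8 to 43.42 in TREM2-R47H. The groups did not overlap, as was so for 3 of 41 sorting genes (EHD4, SNX5 and SNX3; 7.32%) and 5.82% of all tested genes. Against WT, EHD4 changed by -0.17 in TREM2-KO and 0.18 in TREM2-R47H, neither called. SNX27, which recycles receptors with PDZ-binding tails, ranged from 17.81 to 24.15 TPM in TREM2-KO and from 14.72 to 20.45 in TREM2-R47H, which overlapped in part. GGA2, a clathrin adaptor, ranged from 91.97 to 145.01 TPM in TREM2-KO and from 78.18 to 99.61 in TREM2-R47H. The highest TREM2-KO values, 130.62 and 145.01, were those of libraries 4 and 8, which stood apart, and GGA2 was called without them (0.19, adjusted p = 0.042).

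Calls between the TREM2 lines differed in how firmly they held. VPS26B lost its call without the libraries that stood apart (0.09, limma adjusted p = 0.225) and without any 1 of TREM2-KO libraries 4, 6 and 8 or TREM2-R47H libraries 2 to 7 (up to 0.138), and STAM lost it without the former (0.18, 0.0794). GGA2 lost it without TREM2-KO library 8 (adjusted p = 0.0503), STAM without TREM2-R47H library 3 (0.0502). EHD1 differed by 0.29 among libraries 1 to 3 (adjusted p = 0.252) and by 1.83 among libraries 4 to 6 (0.015). With median-ratio scaling SNX3 (0.18), SNX27 (0.25) and EHD1 (0.87) remained called and higher, while VPS29 (0.11), VPS26B (0.11), STAM (0.15) and GGA2 (0.21) did not pass. Under it M6PR (-0.19) and GGA1 (-0.32) were called lower beside EHD4 and SNX5, so 3 were higher and 4 lower. SNX6 (0.28 ± 0.11, adjusted p = 0.0749) and WASHC1 (0.27 ± 0.11, 0.0668) were the largest changes not called.

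Library numbers separated some values within groups. EHD1 in TREM2-R47H was 142.35 to 179.39 TPM in libraries 1, 2, 3 and 7 and 39.08 to 77.5 in libraries 4 to 6, while in WT libraries 4 to 6 spanned 174.73 to 372.27. TBC1D15 in TREM2-R47H was 17.02 to 20.76 TPM in the former and 28.03 to 30.37 in the latter. SNX1, a SNX-BAR nexin, had 60.45 to 111.39 TPM (median 70.3) over the 20 libraries numbered 1 to 4 of the 5 large groups. Over the 16 numbered 5 to 8 it had 83.27 to 137.03 (median 107). Its changes between the lines and WT were -0.21 to -0.02. This split differs from that used for EHD1 and TBC1D15. By theirs, SNX1 had 60.45 to 129.2 TPM in libraries 1, 2, 3 and 7 and 74.75 to 130.56 in libraries 4 to 6. No source used here says what the numbers stand for, and their part in the results was not tested beyond the fits by number given above.

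**Figure D5:**
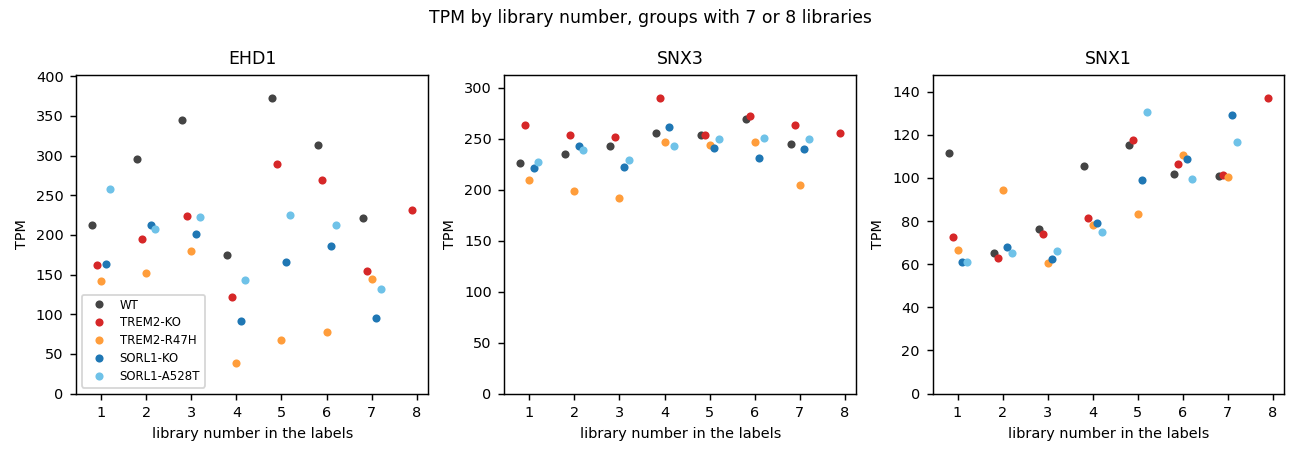
TPM of EHD1, SNX3 and SNX1 by library number, coloured by group, in the 5 groups with 7 or 8 libraries. EHD1 in TREM2-R47H is lowest in libraries 4 to 6, where SNX3 has 244.38 to 246.93 TPM against 253.78 to 269.02 in WT, and SNX1 is at or above 83.27 TPM in each library numbered 5 or higher.

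Further genes of the pathway, 113 tested in all, were examined in 10 lists. In TREM2-R47H against WT 15 of the 113 were called (13.3%, against 11.4% of all tested genes), 2 higher and 13 lower. With median-ratio scaling 4 were higher and 5 lower (7.96%), a smaller share than that of all tested genes called under it, whose counts are given above. With quantile normalization 3 were higher and 5 lower (7.08%), and no share over all genes is given for it here. Of all tested genes 8.77% fell, and 5.58% with median-ratio scaling. In TREM2-R47H 6 of 12 genes of the Arp2/3 complex and capping protein, the actin machinery that WASH activates, fell, and all 12 changes lay below 0 with a median of -0.20 (all tested genes, -0.06). With median-ratio scaling all 12 again lay below 0, with a median of -0.12 (all genes 0.01), and 2 fell (ARPC1B and ACTR2), to which quantile normalization added ARPC3. ARPC1B fell from a mean of 1205 to 973 TPM (-0.31 ± 0.05, limma adjusted p = 4.7e-05), and ACTR2 (-0.24 ± 0.05, 0.00185), ARPC4 (-0.19 ± 0.04, 0.00314) and CAPZA2 (-0.20 ± 0.05, 0.00456) also fell. Among the 10 HOPS and CORVET tethers VPS18 (-0.29) and VPS16 (-0.22) fell, among 20 other sorting nexins SNX11 (-0.51) and SNX15 (-0.33) fell, and among 5 further retromer partners FKBP15 (-0.24) fell. COMMD7 (-0.20) fell among 10 other CCC subunits. Of 24 other ESCRT subunits CHMP2A (-0.26) fell and VPS37B (0.31) rose, and of 10 cargo receptors SORL1 (0.84) rose. With median-ratio scaling or quantile normalization FKBP15, COMMD7, CHMP2A and VPS16 were not called, nor was SNX15 with the latter (adjusted p = 0.0874). SNX11, VPS18, VPS37B and SORL1 were called under both. No gene was called among 10 other AP-1 and AP-3 subunits, 5 GARP and EARP tethers or 7 endosomal phosphoinositide kinases, but VPS51, a subunit of GARP and EARP, was called higher with median-ratio scaling (0.29, limma adjusted p = 0.00717) and quantile normalization (0.29, 0.0164), and DNAJC13, a further retromer partner, with the former (0.23, 0.0455).

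In the other lines these lists held few calls. MVB12B, an ESCRT-I subunit, rose in TREM2-KO (0.78 ± 0.21, limma adjusted p = 0.0403) and SORL1 fell in SORL1-KO (-0.96 ± 0.25, 0.0462), and no other gene of the 10 lists was called against WT in these lines. MVB12B was also called under both other scalings and SORL1 under neither (adjusted p = 0.0503 with median-ratio scaling and 0.0529 with quantile normalization). No Arp2/3 or capping gene was called in these lines. The 12 changed by -0.13 to -0.02 in SORL1-A528T (median -0.10), by -0.19 to -0.01 in SORL1-KO (median -0.08) and by -0.25 to 0.06 in TREM2-KO (median -0.05, 10 below 0). With quantile normalization 2, 3 and 2 of them lay above 0. Between the TREM2 lines 28 of the 113 genes were called (24.8%, against 21.3% of all tested genes), 22 higher in TREM2-KO and 6 lower. With median-ratio scaling 9 were higher and 8 lower (15.0%), a smaller share than that of all tested genes called under it, whose counts are given above. With quantile normalization 10 were higher and 7 lower, and no share over all genes is given for it here. Called under all of these scalings and higher in TREM2-KO were SNX11 (0.66), ARPC1B (0.25), MVB12B (1.175), SNX15, CHMP2A, ACTR2, AP1S2, VPS33B and VPS16. Called under all and lower in it were VPS37B (-0.55), SORL1 (-1.23), TFRC, AP1S1, SORCS1 and ITGB1.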

How the data were processed

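The authors deposited 1 table of TPM per gene (RSEM) for 40 libraries. RSEM 1.3.1, STAR 2.7, cutadapt 1.18 and DESeq2 are named in the submitters' processing notes. The genome build and annotation were not given in the sources used here, and per the labels depth was 39.2 to 64.6 M reads (mean 45.13). TPM keeps no depth per library, so no counting error can be given. Gene IDs were matched to symbols (93.5%). Values were tested as log2(TPM + 1) in limma 3.58.1 (R 4.3.3): 1 fit of 7 group means, trended and robust variances, Benjamini-Hochberg adjustment over 14855 genes, in 8 comparisons. The script was checked on simulated data. Exact permutation tests were 2-sided. The 48 tests took in some genes because they were called or their values were seen, a choice that the adjustment over 48 does not cover. Genes and lists were chosen with earlier results of these data known. Named with a change is each gene called in any comparison, plus the 2 largest not called in each. Values by library are given for called genes with a change of at least 0.3 against WT, VPS35, VPS26A and VPS29, and others (SNX3 and SNX5 among them) added after their values were seen; WASHC2A was also so chosen. Of each further list, up to 4 called genes are named. Library numbers were taken as pairing groups where each number's correlation of deviations exceeded 0.1: TREM2-KO with WT (0.114 to 0.312), TREM2-R47H with WT (0.14 to 0.278) and the SORL1 lines (0.306 to 0.785). Positions are GENCODE v29 (GRCh38). Alternatives: pseudocount 0.1 or 5, no filter, median-ratio or quantile scaling, 2 groups alone, replicate block, stromal covariate and, added after seeing the data, subsets of libraries.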

Additional observations from a re-analysis of the deposited data

Results flagged for a closer look

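Of the values by library, 6 lay far from the other libraries of their group by Dixon's test, which flags about 1 in 20 groups by chance and was run on 90 groups of the named genes. EHD2 had 0.76 TPM in SORL1-KO library 4, where the next value was 0.18. SNX17 had 91.74 TPM and CCDC93 20.82 in SORL1-A528T library 7, and SNX5 had 152.04 in SORL1-KO library 7, both libraries that stood apart. EHD4 (48.16 TPM) and SNX6 (85.13) were high in WT library 4.

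The TREM2 lines differed by the limma test in 9 sorting genes, as TREM2-KO minus TREM2-R47H: EHD1 (0.95), SNX27 (0.33), GGA2 (0.29), SNX3 (0.26), STAM (0.23), VPS29 (0.19) and VPS26B (0.19), and EHD4 (-0.35) and SNX5 (-0.18). The SORL1 lines differed in TBC1D15 (0.87, SORL1-KO minus SORL1-A528T).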

How the results depend on the processing

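EHD1 in TREM2-R47H was called under every setting run. The number of sorting genes called moved by over 1.5 times as follows. Unless a value above shows the cause, the cause was not tested. Counts here and in the next paragraph include EHD2 where it was called. Without EHD2 the counts in brackets against WT were 0 in TREM2-KO and SORL1-KO, 4 in TREM2-R47H and 1 in SORL1-A528T. For most settings no share over all tested genes is given, so the counts describe calls only. TREM2-KO against WT (1 called): 0 with the groups alone, the stromal covariate, libraries 1 to 3 or libraries 4 to 6, and 1 to 1 without 1 library. TREM2-R47H (5): 3 with no filter, median-ratio scaling or libraries 5 and 6 averaged, 2 with the stromal covariate, and 3 to 6 without 1 library. SORL1-KO (1): 2 with quantile normalization or libraries 4 to 6, 0 with the groups alone, the stromal covariate or libraries 5 and 6 averaged, and 1 to 3 without 1 library. SORL1-A528T (2): 1 with pseudocount 0.1 or 5, no filter, the groups alone, no libraries that stood apart or libraries 1 to 3, 0 with the stromal covariate or libraries 5 and 6 averaged, and 1 to 3 without 1 library. TREM2-KO against TREM2-R47H (9): 4 with libraries 1 to 3, 1 with libraries 4 to 6, and 7 to 12 without 1 library. SORL1-KO against SORL1-A528T (1): 0 with the groups alone or libraries 4 to 6, and 1 to 1 without 1 library. CD33-SNP and INPP5D-SNP kept 0 without any 1 library. EHD2 in INPP5D-SNP (0.64) turned to -0.0315 without INPP5D-SNP library 2 and ranged up to 1.31.

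With the replicate number as a block, 2 sorting genes were called in TREM2-KO (groups alone), 5 in SORL1-KO and 5 in INPP5D-SNP (all libraries), 1 in SORL1-A528T (groups alone), and 7 in TREM2-R47H. No share of all tested genes called with the block is given here, so these counts cannot be set against the background. The replicate numbers did not pair SORL1-KO, SORL1-A528T, CD33-SNP or INPP5D-SNP with WT (lowest correlations -0.105, -0.0821, -0.0251 and 0.0212), nor the TREM2 lines with each other (0.0916). In these, libraries correlated best with their own number for 4, 3, 0, 0 and 2 of the numbers. Where the numbers were taken as pairing, this was so for 3 of 7 (TREM2-KO with WT), 4 of 7 (TREM2-R47H with WT) and 3 of 7 (SORL1 lines). These counts are like those of SORL1-KO and SORL1-A528T with WT, so the pairing is uncertain.

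With TPM alone, low genes such as EHD2 and EHD3 cannot be given a counting error, and the groups of 2 libraries allow no exact p under 0.0278.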

Other observations

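Of the 4 libraries that stood apart, 3 placed the same sorting genes at the edge of their groups. In each of TREM2-KO library 8, SORL1-KO library 7 and SORL1-A528T library 7, 9 of the 41 genes were the highest of their group (VPS26B, SNX5, WASHC3, WASHC4, GGA2, AP3B1, VPS4B, TBC1D5 and TBC1D15) and 2 the lowest (SNX17 and VPS4A). These are 22.0% and 4.88% of the sorting genes, against 16.3% and 15.3% of all tested genes. TREM2-KO library 4, the other library that stood apart, shares its group with library 8. It could not take an edge that library 8 held, and was left out of these counts. GGA2 had 145.01, 151 and 148.58 TPM in the 3 libraries, against medians of 106 to 113 TPM in their groups. SNX17 had 81.26, 81.58 and 91.74 TPM, against medians of 127 to 128. For these genes TREM2-KO library 4, at 130.62 and 90.59 TPM, was next to library 8. In the 3 libraries the share of sorting genes at the edge of their group was 43.9%, 58.5% and 63.4%, against 51.6%, 60.6% and 62.2% of all tested genes.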
